A study of Brassica rapa with 12 samples.

Results

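In 2-week-old Chinese cabbage (Brassica rapa), 52 genes stood out for a deep loss of transcript after 1 h at 37 °C in both genotypes studied. They were chosen from the measured levels: a gene had to average at least 5 CPM (counts per 1000000 reads in genes, scaled between libraries) at 22 °C in both genotypes, and its mean at 37 °C had to be at least 8-fold lower than its mean at 22 °C in both. The 52 genes were 0.180% of the 28846 genes tested and 0.327% of the 15910 genes with at least 5 CPM at 22 °C in both genotypes. The heat values of these genes are therefore a description of what was chosen, and heat calls on them support nothing. The rule set no ratio between the genotypes. It did use the mean of every group, with a minimum at 22 °C and a cap at 37 °C in both genotypes. The genotype contrasts and the heat by genotype difference of the members are therefore not independent of the choice.

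The study compared Chiifu, the unedited cultivar, with gi, a line of the same cultivar in which GIGANTEA had been gene-edited. The labels list gi as late flowering and Chiifu as early flowering. All plants were grown on 1/2MS medium to the age of 2 weeks, and in each genotype some stayed at 22 °C while others were heated to 37 °C for 1 h, giving 4 groups of 3 whole-plant mRNA libraries. The sources used here name neither the allele of gi nor the number of edited lines or of plants in a library, so gi may stand for 1 line only.

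Counts in genes ran from 36778289 to 57777477 per library, and a floor of 3 counts was worth 0.0377 to 0.0964 CPM. That floor allows for counting error only, and its range reflects library size and scaling. The gene IDs carry no names here, since 0 of them matched the available table of 51589 genes, so neither the edited gene nor markers of any tissue could be checked, and no function or sequence is given for a member. Chiifu at 22 °C replicate 1 stood apart among its replicates. Its chi-square of counts per degree of freedom was 353 and 318 against replicates 2 and 3, compared with 68.8 between those 2. At smaller values, replicate 1 also stood apart in gi. It gave 103 and 120 at 22 °C, against 39.2 between replicates 2 and 3, and 58.1 and 70.7 at 37 °C, against 14.9. In Chiifu at 37 °C the values ran from 54.5 to 72.5. In whole plants, fewer cells of a type and less RNA per cell cannot be told apart.

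A sudden rise in temperature makes plant cells redirect transcription. Heat shock factors switch on genes for chaperones, the proteins that keep others folded, while many genes of growth and metabolism lose transcript through reduced synthesis, faster decay or both. How quickly a messenger can disappear within an hour is bounded by its decay rate, because transcripts already made persist until they are degraded. GIGANTEA is a large plant protein that acts in the circadian clock and in the timing of flowering by day length, and is known in Arabidopsis to stabilise the clock-linked photoreceptor ZEITLUPE and to promote expression of the flowering regulator CONSTANS.

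At 22 °C the 52 genes were of ordinary abundance. Their mean level had a median of 18.1 CPM over the genes in Chiifu, with a range of 5.47 to 146, and of 17.7 CPM in gi, with a range of 5.27 to 196. Averaged over both genotypes, 6 genes lay between 5 and 10 CPM, 21 between 10 and 20, 18 between 20 and 50, and 7 at 50 or more, and those 7 held 41.3% of the summed level. At 37 °C the median was 1.34 CPM in Chiifu, from 0 to 17.7, and 1.28 CPM in gi, from 0.150 to 22.8. In Chiifu 19 genes and in gi 16 averaged under 1 CPM after heat, and 7 genes in Chiifu but 0 in gi had a heated library with 3 counts or fewer. Even so, most of the lower values rested on a usable number of reads: the 3 heated libraries together held a median of 131.5 counts per gene in Chiifu and 142.5 in gi.

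**Figure D1:**
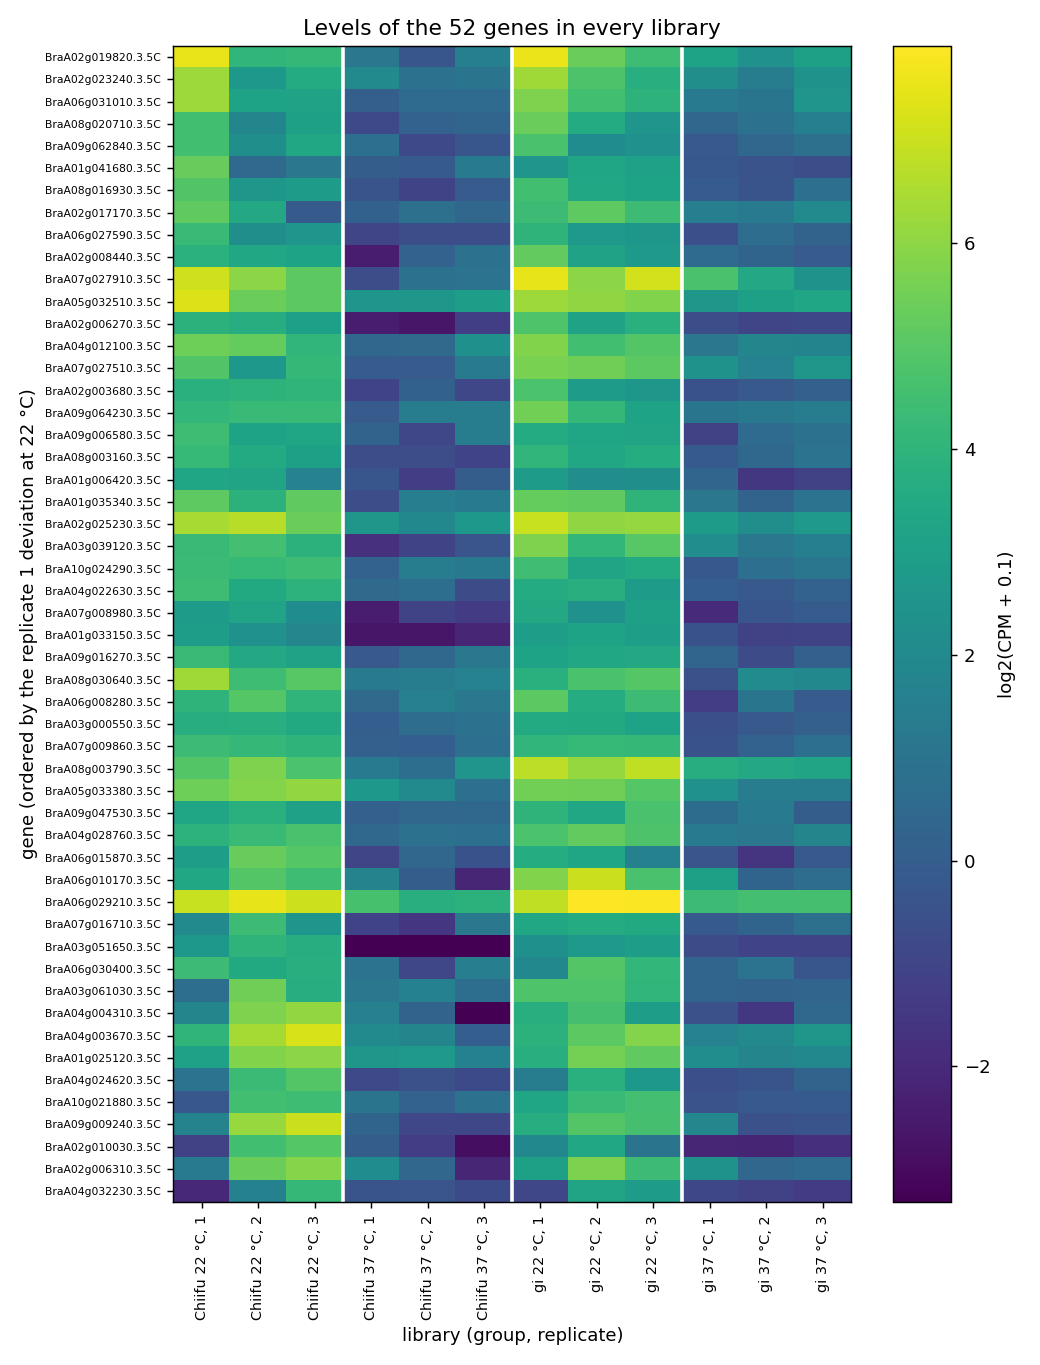
Level of each of the 52 genes (rows) in each of the 12 libraries (columns), coloured by log2(CPM + 0.1). Rows are ordered by the deviation of replicate 1 at 22 °C. The heated libraries of both genotypes are darker (lower) than the 22 °C libraries in nearly all rows, and towards the top and bottom rows replicate 1 at 22 °C is the highest or the lowest of its group.

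Added together, the 52 genes gave 1400 to 1644 CPM in the libraries of Chiifu at 22 °C and 87.6 to 107 CPM at 37 °C. In gi the sum was 1368 to 1858 CPM at 22 °C and 130 to 162 CPM at 37 °C. The sum was thus 15.2-fold lower after heat in Chiifu (1496 ± 130 against 98.4 ± 9.77, SD, n = 3) and 10.8-fold lower in gi (1585 ± 250 against 147 ± 16.3). At 22 °C the genotypes overlapped, whereas at 37 °C every gi library lay above every Chiifu library. Leaving out the 3 genes with the highest levels at 37 °C kept that order, with 66.8 to 76.8 CPM in Chiifu and 86.5 to 111 CPM in gi.

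Most of the genes sat near the limit that chose them. By the weaker of its 2 genotypes, 47 genes fell 8-fold to 16-fold, 3 fell 16-fold to 32-fold, and 2 fell more than 32-fold. The falls were often deeper in Chiifu: 10 genes reached 32-fold there, 1 of them with 0 counts after heat, against 2 in gi, and 36 of the 52 had the larger fold in Chiifu. These counts come from the folds that chose the genes, and no share over all genes is given beside them. More genes met the limits in Chiifu (195) than in gi (136), so the counts are a description. The median fold was 13.8 in Chiifu over the 51 genes with counts after heat, up to 104, and 11.5 in gi, up to 36.9. Just inside the limit lay BraA01g025120.3.5C, with a mean of 42.1 CPM going to 5.22 in Chiifu, which is 8.06-fold, and 32.5 going to 3.82 in gi. Just outside lay BraA05g039700.3.5C, which went from 16.2 to 2.05 CPM in Chiifu, 7.93-fold, and from 32.9 to 1.95 CPM in gi, 16.9-fold. In all, 11 members had a weaker fold under 9, 19 genes outside had one of at least 7, and 139 more genes fell 8-fold in both genotypes from a level under 5 CPM in at least 1 of them.

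**Figure D2:**
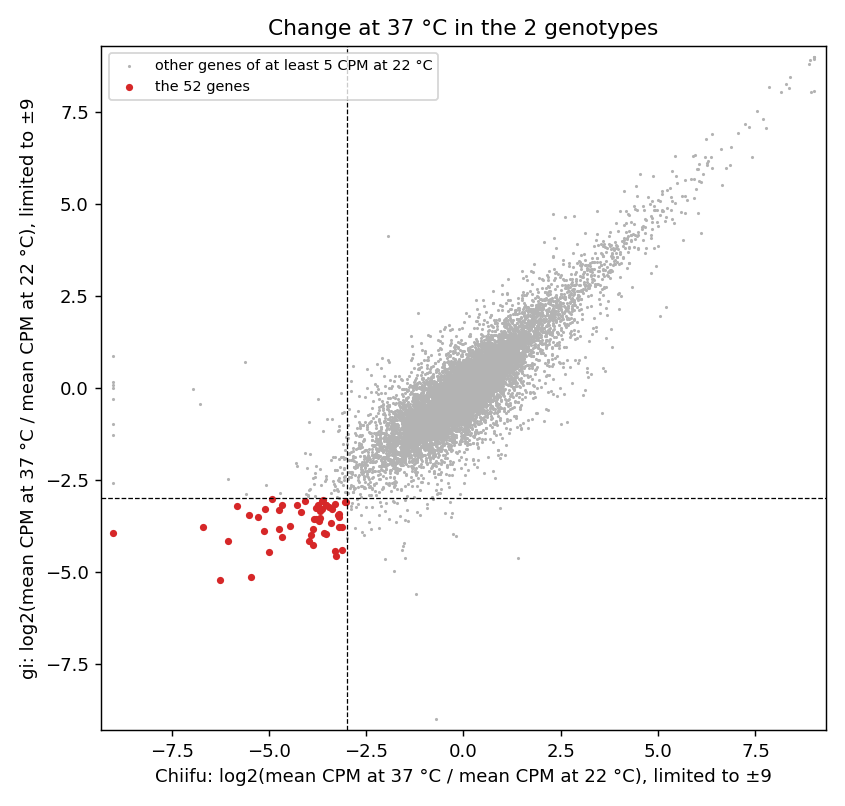
Log2 ratio of mean CPM at 37 °C to 22 °C in Chiifu (x axis) and gi (y axis) for the genes with at least 5 CPM at 22 °C in both genotypes. The 52 members (red) lie past the dashed lines at 8-fold lower on both axes, and the member at the left edge had 0 counts in Chiifu at 37 °C and is drawn at the axis limit.

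The most abundant member at 22 °C was BraA06g029210.3.5C. Its 3 libraries of Chiifu at 22 °C held 125, 180.5 and 132 CPM, and those at 37 °C 25.2, 13.0 and 14.9 CPM. In gi they held 114, 242 and 232 CPM at 22 °C and 20.8, 23.7 and 23.9 CPM at 37 °C. No heated library came near an unheated one, and the folds of 8.24 in Chiifu and 8.59 in gi were almost equal. It also kept more transcript after heat than any other member, with means of 17.7 CPM in Chiifu and 22.8 CPM in gi.

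The second most abundant, BraA07g027910.3.5C, parted after heat. In Chiifu it went from 136, 62.9 and 33.7 CPM to 0.522, 1.75 and 1.86 CPM, a fold of 56.2. In gi it went from 182, 63.2 and 142 CPM to 25.5, 11.1 and 5.33 CPM, a fold of 9.24. The genotypes overlapped at 22 °C, and at 37 °C the lowest gi library was above the highest Chiifu library. Its difference in heat change between the genotypes was not called (adjusted p = 0.416 in edgeR).

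The deepest falls on average over both genotypes, among members with at least 10 CPM at 22 °C in both, were those of BraA02g006270.3.5C and BraA09g009240.3.5C. BraA02g006270.3.5C held 14.7, 12.9 and 7.91 CPM in Chiifu at 22 °C and 0.0870, 0.0614 and 0.321 CPM at 37 °C, from 15 counts in all. In gi it held 28.3, 8.88 and 14.2 CPM at 22 °C and 0.540, 0.409 and 0.443 CPM at 37 °C, from 52 counts. Each heated library was far below each unheated one, and the folds were 75.7 in Chiifu and 36.9 in gi, the largest weaker fold of all members.

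BraA09g009240.3.5C reached its fold of 104 in Chiifu from uneven libraries. At 22 °C they held 3.12, 71.8 and 131 CPM, and at 37 °C 1.13, 0.430 and 0.418 CPM. In gi they held 12.8, 30.2 and 24.1 CPM at 22 °C and 3.63, 0.598 and 0.664 CPM at 37 °C, a fold of 13.7. Replicate 1 was the lowest unheated library and the highest heated one in both genotypes, yet the temperatures did not overlap.

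**Figure D3:**
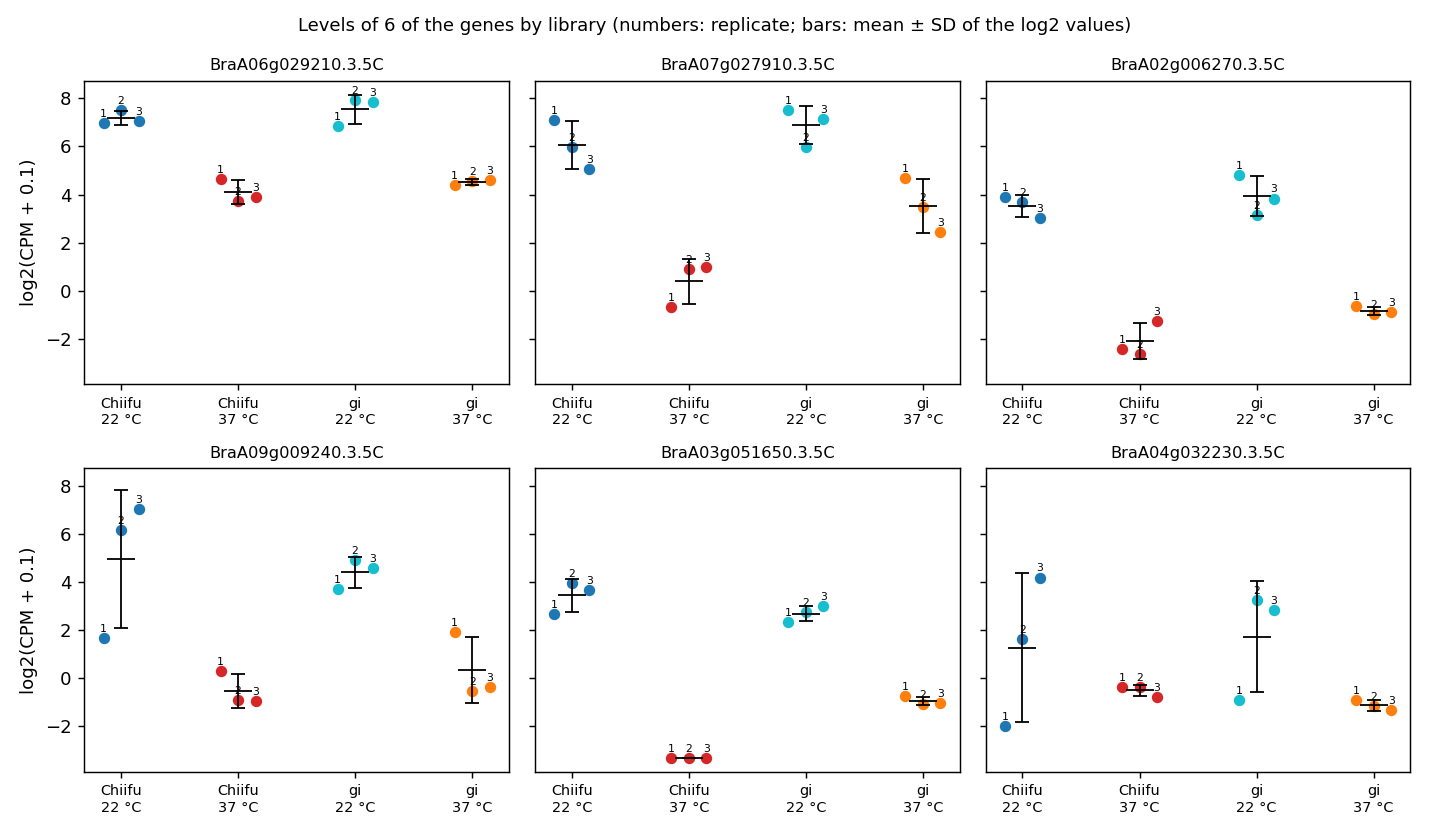
Level of 6 members in each library, as log2(CPM + 0.1), by group. Points are libraries with their replicate number, and bars give the mean ± SD of the log2 values (n = 3). The unheated libraries of BraA06g029210.3.5C and BraA02g006270.3.5C stay close together beside those of BraA09g009240.3.5C in Chiifu, which run from 3.12 to 131 CPM.

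Although means chose the genes, single libraries of the 2 temperatures did not always separate. In Chiifu 45 of the 52 genes (86.5%) had every 22 °C library above every 37 °C library, against 23.9% of all genes tested. In gi 51 genes (98.1%) did so, against 27.3%. Of the 7 that overlapped in Chiifu, 5 did so only because of replicate 1 at 22 °C. The one gene that overlapped in both was BraA04g032230.3.5C, named after its values were seen, with 0.149, 2.98 and 18.1 CPM in Chiifu at 22 °C and 0.667, 0.676 and 0.482 CPM at 37 °C. In gi it held 0.426, 9.37 and 7.10 CPM at 22 °C and 0.437, 0.346 and 0.295 CPM at 37 °C, so that replicate 1 at 22 °C lay below at least 1 heated library in each genotype.

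In edgeR's quasi-likelihood test (adjusted p under 0.05 over all genes), 51 of the 52 were called lower in Chiifu and 50 in gi, where 16.5% and 14.2% of all genes were called lower. These counts are given for completeness, since the same heat values chose the genes. That background moved with how libraries were scaled. Under total counts instead of TMM, the method used throughout, 54.9% of all genes were called lower and 7.18% higher in Chiifu, and 38.4% lower and 8.74% higher in gi. BraA04g032230.3.5C was called in neither genotype, and BraA02g006310.3.5C, with 8.16, 51.9 and 20.6 CPM at 22 °C and 5.14, 1.20 and 1.43 CPM at 37 °C, was not called in gi. The median log2 change of the 52 was -3.78 in Chiifu and -3.52 in gi, beside -0.11 and -0.07 over all genes tested.

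Genes chosen in 1 genotype could be tested in the 6 libraries of the other. The separation is not complete, since the fit takes its estimate of spread from all 12 libraries and same-numbered libraries of the genotypes deviated together. In Chiifu alone 195 genes met the limits on level and fall. Of these, 107 (54.9%) were called lower in gi by edgeR, whereas 18.5% of the 16921 genes with at least 5 CPM in Chiifu at 22 °C were called lower in gi. Their median fold was 5.51 in gi, over the 191 genes with counts after heat, and 1.07 over the background genes. The 195 comprised the 52 members (26.7%), 85 genes with at least 5 CPM in gi but a smaller fall there, and 58 genes under 5 CPM in gi. In 10 of the 195 the mean in gi was higher at 37 °C than at 22 °C. A fit of the gi libraries alone called 135 of the 195 lower, but the share of background genes called in that fit is not given.

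Choosing in gi gave 136 genes. In Chiifu 88 of them (64.7%) were called lower by edgeR, against 18.2% called lower among the 16689 genes with at least 5 CPM in gi at 22 °C. The median fold in Chiifu was 6.60 over the 134 genes with counts after heat, and 0.979 over the background genes. The 136 comprised the 52 members (38.2%), 52 genes with a smaller fall in Chiifu and 32 genes under 5 CPM there, and 5 had a higher mean after heat in Chiifu. A fit of the Chiifu libraries alone called 71 of the 136 lower, again without the share of background genes called in that fit.

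**Figure D4:**
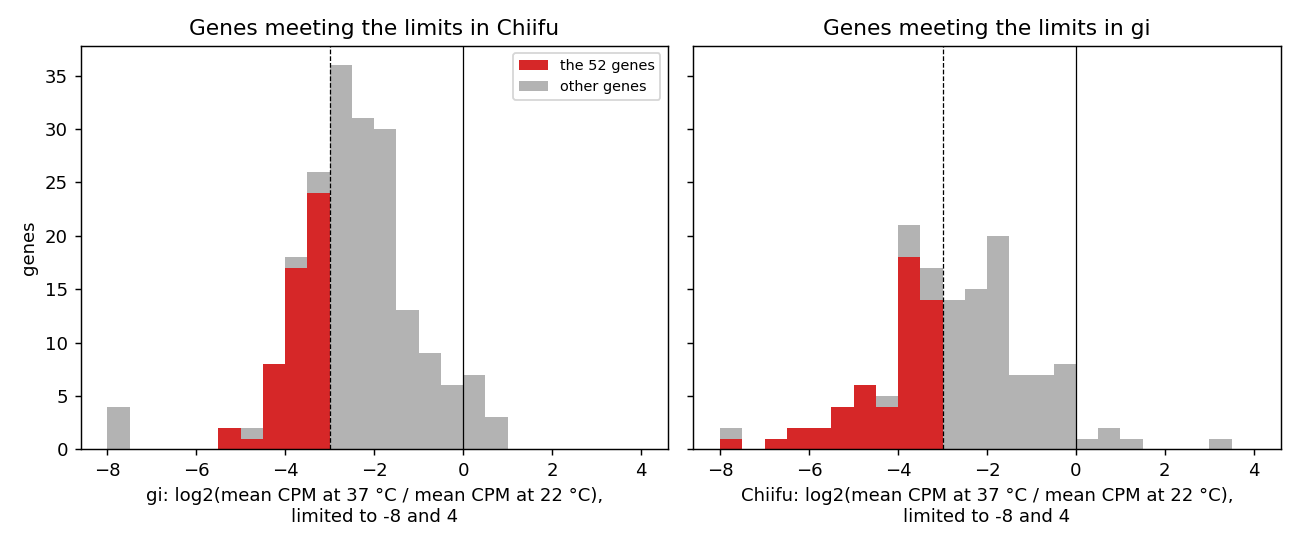
Log2 ratio of mean CPM at 37 °C to 22 °C in the genotype that did not choose the genes, for the 195 genes chosen in Chiifu (measured in gi) and the 136 chosen in gi (measured in Chiifu), as numbers of genes per bin. The 52 members (red) lie left of the dashed line at 8-fold lower by the way they were chosen, and most of the other genes (grey) lie between that line and 0. Genes with 0 counts after heat are drawn at the left axis limit.

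The unheated level of these genes differed widely between replicates. The coefficient of variation over the 3 libraries at 22 °C had a median of 0.520 in Chiifu and 0.462 in gi, against 0.213 and 0.143 over the 15910 genes with at least 5 CPM in both. For the 1368 of those genes whose weaker fall lay between 2-fold and 8-fold the medians were 0.354 and 0.201. The highest library exceeded the lowest 3.04-fold in the median member in Chiifu and 2.44-fold in gi, and without replicate 1 the Chiifu value was 1.40-fold.

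Leaving out 1 library can never widen such a ratio, and without replicate 2 or 3 in place of replicate 1 it was 2.21-fold and 2.43-fold in Chiifu. In gi it was 1.33-fold, 1.88-fold and 2.13-fold without replicates 1, 2 and 3. Since the 22 °C means took part in choosing the members, and a single high library can lift a mean over the limit, these spreads are a description.

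Replicate 1 deviated among the members in both directions and in both genotypes. Against the mean of replicates 2 and 3 it differed by more than 1 on the log2(CPM + 0.1) scale in 53.8% of the members in Chiifu, with 14 genes high and 14 low, and in 50% in gi, with 16 high and 10 low. The shares were 38.2% and 15.2% over the 1368 genes with a weaker fall, and 18.1% and 6.88% over all genes with at least 5 CPM. Taken the same way, replicates 2 and 3 differed from the other libraries of their group in 40.4% and 34.6% of the members in Chiifu and in 25% and 30.8% in gi. The deviation of replicate 1 had the same sign in both genotypes for 38 members (73.1%), 23 of them high and 15 low, against 59.8% of the genes with at least 5 CPM. It passed 1 log2 unit the same way in both genotypes for 14 members (26.9%), against 2.61% of those genes, and in opposite ways for 2.

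Across the 52 members the deviations of replicate 1 at 22 °C in Chiifu and gi correlated at Pearson's 0.542, a description over genes that share the same 2 pairs of libraries. The value was 0.195 over the genes with a weaker fall and 0.291 over those with at least 5 CPM. For replicates 2 and 3 it was 0.340 and 0.180, and between different numbers it ran from -0.554 to 0.588, the highest being Chiifu replicate 3 with gi replicate 2. At 37 °C the same-number values were 0.294, -0.0896 and 0.00436. The labels do not say what a replicate number marks, and whether it stands for a shared time, batch or harvest was not tested.

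Single genes show the size of this pattern; the 3 given here were chosen after their values were seen. BraA02g019820.3.5C held 185, 16.6 and 17.7 CPM in Chiifu at 22 °C and 191, 42.0 and 21.4 CPM in gi. BraA02g023240.3.5C held 76.7, 6.28 and 11.8 CPM in Chiifu and 80.6, 27.2 and 13.5 CPM in gi. In both genes replicate 1 was the highest unheated library of each genotype. BraA02g006310.3.5C ran the other way in Chiifu and gi, with 2.27, 41.7 and 57.8 CPM in the first and 8.16, 51.9 and 20.6 CPM in the second. After heat all 3 genes were low in each library, at 4.35 CPM or less in Chiifu and 9.21 CPM or less in gi. The temperatures overlapped for BraA02g006310.3.5C in Chiifu, where replicate 1 held 2.27 CPM unheated and 4.35 CPM heated.

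**Figure D5:**
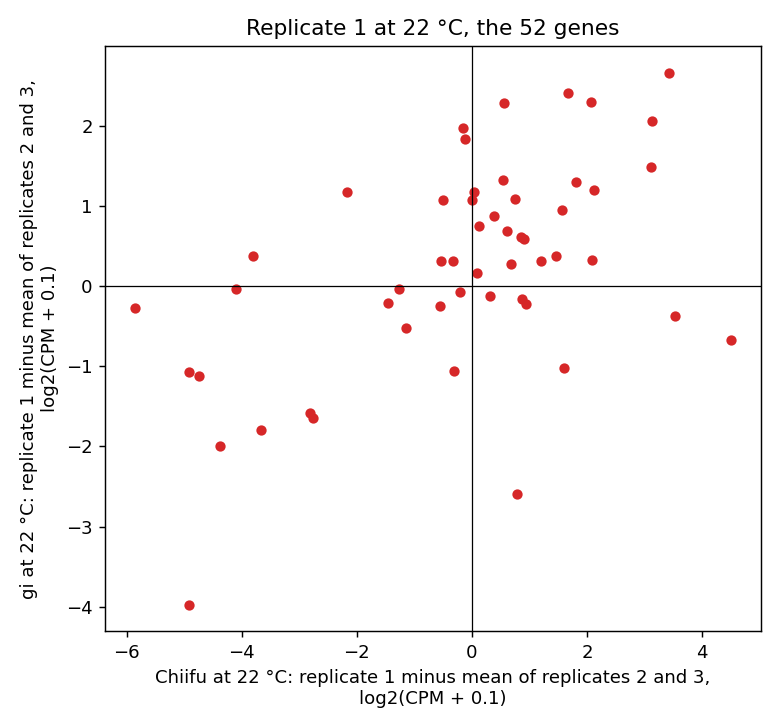
Deviation of replicate 1 from the mean of replicates 2 and 3 at 22 °C, on the log2(CPM + 0.1) scale, in Chiifu (x axis) and gi (y axis). Each point is 1 of the 52 members, and 38 lie in the quadrants where both genotypes deviate the same way.

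Before heat hardly any difference between the genotypes was called for these genes, which had to reach 5 CPM at 22 °C in both. At 22 °C edgeR called 0 members higher and 0 lower in gi, where 0.451% and 0.562% of all genes were called. Shares that small leave hardly any call among 52 genes, so these counts do not set the members apart. The members also varied more between replicates at 22 °C. Their median coefficient of variation was 0.520 in Chiifu and 0.462 in gi, against 0.213 and 0.143 over genes with at least 5 CPM. Few calls are therefore no sign that the genotypes were alike before heat. An unadjusted p under 0.05 was found for 5 members, and DESeq2 called 1 higher and 0 lower, both without a share over all genes. The gene called by DESeq2 was BraA08g003790.3.5C, with 30.2, 54.0 and 26.8 CPM in Chiifu and 112, 70.5 and 115 CPM in gi. The median log2 difference of the members was 0.03, beside -0.02 over all genes. In 3 members (5.77%) every gi library was above every Chiifu library, against 9.76% of all genes, and in 0 the reverse, against 10.7%. Mean levels of the members at 22 °C correlated between the genotypes at Pearson's 0.787 on the log2 scale (52 genes).

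After heat more members had a higher level in gi than in Chiifu, measured in the same libraries that chose them. The mean at 37 °C was higher in gi for 33 members (63.5%), against 48.3% of all genes tested and 41.3% of those with at least 5 CPM. The libraries were fully apart with gi higher for 14 members (26.9%, against 15.3% of all genes) and with Chiifu higher for 4 (7.69%, against 15.3%). The median log2 difference was 0.37, beside -0.02 over all genes. By edgeR 4 members were called higher in gi, against 1.29% of all genes, and 0 lower, against 1.4%. An unadjusted p under 0.05 was found for 10 members, and DESeq2 called 7 higher and 0 lower. No share over all genes is given for these last counts, so they cannot be set against the edgeR shares.

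Of the 4 called genes, BraA07g027910.3.5C, described above, differed by a log2 value of 3.34 (SE 0.75, adjusted p = 0.0438 in edgeR). With the replicate number as a block it was not called (adjusted p = 0.0758 in edgeR). Over all its alternatives the adjusted p ran from 4.08e-05 to 0.133, and it was called in only 7 of 19 settings, the main fit included. The other 3 are named because the count is small, after their values were seen. BraA03g039120.3.5C held 0.203, 0.399 and 0.675 CPM in Chiifu at 37 °C and 4.47, 2.17 and 2.80 CPM in gi, a log2 difference of 2.89 (SE 0.52, adjusted p = 0.0172 in edgeR). Its unheated libraries overlapped, with 19.3, 23.6 and 15.04 CPM in Chiifu and 53.2, 17.2 and 31.9 CPM in gi. BraA01g033150.3.5C held 0.0580, 0.0614 and 0.128 CPM in Chiifu at 37 °C, from 8 counts, and 0.617, 0.346 and 0.393 CPM in gi, from 51 counts, a log2 difference of 2.43 (SE 0.45, adjusted p = 0.0204 in edgeR). These calls were close to the threshold: without replicate 1 or 2 of Chiifu at 37 °C, or replicate 1 or 3 of gi at 37 °C, 1 of the 4 remained, BraA03g051650.3.5C, and without replicate 1 of Chiifu at 22 °C 7 members were called.

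BraA03g051650.3.5C was the member that differed most. Chiifu held 6.28, 15.5 and 12.6 CPM at 22 °C and 0 counts in each library at 37 °C, a mean at least 125-fold lower against a floor of 3 counts per library. In gi it held 4.95, 6.60 and 7.78 CPM at 22 °C and 0.489, 0.378 and 0.393 CPM at 37 °C, from 47 counts, a fold of 15.3. The genotypes overlapped before heat, and after heat gi was at least 4.57-fold higher than the Chiifu floor (adjusted p = 0.00400 in edgeR). By its ID it lies on chromosome A03 between BraA03g049360.3.5C and BraA03g054150.3.5C, a stretch of 296 tested genes. That stretch held 11 of the 20 genes whose heat change edgeR called higher in gi than in Chiifu, this gene among them. The stretch was picked for a genotype-dependent heat response in these same data, so that share is a description. Heat and a difference between the sampled plants in that stretch cannot be told apart for this gene.

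Tested directly, the difference between the genotypes in the heat change was called for 1 member, again BraA03g051650.3.5C (log2 8.23, SE 0.95, adjusted p = 0.0211 in edgeR, a size that depends on the prior count because 1 group had 0 counts). That is 1 of 52 where gi changed less and 0 where it changed more, against 0.0693% and 0.0485% of all genes. The rule held both falls to at least 8-fold, so members could differ only beyond that limit. An unadjusted p under 0.05 was found for 5 members, and DESeq2 called 1 and 0. No share over all genes is given for these last counts, so nothing is read from them. The call was lost with the replicate number as a block (adjusted p = 0.0703 in edgeR) and without any 1 of 6 libraries (adjusted p of 0.0614 to 0.0771 in edgeR), out of a range of 3.40e-05 to 0.0771 over all its alternatives. The median log2 value of the members was 0.34, beside 0.01 over all genes and -0.12 over those with at least 5 CPM. For the other 51 members a difference in heat change was not detectable at this replication, which is no sign that the genotypes responded alike.

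The members were scattered over all 10 chromosomes by their IDs. Chromosome A02 held 9 and A04 7, which were 0.329% and 0.362% of the genes tested there, A06 held 7, A09 6, and A01, A07 and A08 5 each. A03 held 4, and A05 and A10 held 2 each. None was next to another in the order of tested IDs. The closest pair was BraA02g006270.3.5C and BraA02g006310.3.5C, with 2 tested genes between them. Within 50 tested IDs of another member lay 10 members (19.2%), against 16.4% of all genes tested.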

How the data were processed

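For each library the authors deposited counts, whole reads per gene without normalization, with 5 closing rows for reads that HTSeq left unassigned. Per the labels' protocols, RNA from whole seedlings was DNase-treated, prepared with a strand-specific mRNA kit and sequenced on a NovaSeq system. FastQC, TopHat2, HTSeq and edgeR are named, without versions, in the submitters' processing notes. Build, annotation and strand setting are not given in the sources used here, so reads of near-identical gene copies or overlapping genes may be split or lost. The closing rows entered neither library sizes nor tests. Leaving aside reads not aligned, they held 2.65% to 3.79% (outside genes), 0.990% to 1.17% (ambiguous), 1.27% to 1.94% (low quality) and 3.06% to 4.42% (more than 1 alignment) of a library.

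In R 4.3.3 with edgeR 4.0.16, filterByExpr (minimum count 10, minimum total 15) kept 28846 of 47249 genes. Libraries were scaled by TMM, with factors of 1.39 ± 0.134 and 0.719 ± 0.0489 (SD, n = 3) in Chiifu at 22 °C and 37 °C and 1.25 ± 0.0598 and 0.816 ± 0.126 in gi. All 12 libraries entered 1 quasi-likelihood fit of the 4 groups, and p-values were adjusted by Benjamini-Hochberg over all genes within each contrast, with calls under 0.05. DESeq2 1.42.0 was an alternative. The procedure was tested on simulated data.

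The 52 members, the lists and the tests were chosen with earlier results of these data known. Genes named by rule were the 2 most abundant members, the 2 with the largest mean fall among those with at least 10 CPM, up to 2 each way per called contrast, and the nearest gene on each side of the limit. Nothing says that replicates are separate cultures, so p-values reflect the spread of these libraries alone, which may be technical.

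Deviations of same-numbered libraries from their group means correlated between genotypes at 0.285, 0.145 and 0.220 at 22 °C and 0.429, 0.152 and 0.221 at 37 °C, all over 0.1, which meets the rule for pairing in the genotype contrasts. The calls and p-values reported are nevertheless those of the fit without a block. For the genotype contrasts and the heat by genotype difference, the fit with the replicate number as a block is given where it changes a call. For heat, the block fit called 49 members lower in Chiifu and 48 in gi. It called 104 of the genes chosen in Chiifu lower in gi, and 85 of those chosen in gi lower in Chiifu. No share over all genes is given for the block fit. Between temperatures they did not all pass 0.1 (0.122, 0.0932 and 0.174 in Chiifu; 0.182, -0.323 and 0.262 in gi).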

Additional observations from a re-analysis of the deposited data

Results flagged for a closer look

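The heat change of BraA03g051650.3.5C was called different between the genotypes in the fit without a block, with a log2 value of 8.23 (SE 0.95, adjusted p = 0.0211 in edgeR; 3.40e-05 to 0.0771 over its alternatives). With the replicate number as a block it was not called (adjusted p = 0.0703 in edgeR). All 3 Chiifu libraries at 37 °C held 0 counts, and all 3 gi libraries at 37 °C held counts. The prior count sets the size of this value. Counted against the floor, the fall was at least 125-fold in Chiifu, beside 15.3-fold in gi. The bound of 4.57-fold covers only the genotype difference at 37 °C, not the difference in heat change. The gene lies in the stretch of A03 described above, where heat and a difference between the sampled plants cannot be told apart.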

How the results depend on the processing

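How many genes met the limits depended most on the scaling and on the limits themselves. With total counts in place of TMM 175 genes met them, all 52 members among them, since that scaling moved the median log2 heat change of all genes to -1.05 in Chiifu and -0.68 in gi. Taken relative to the median ratio of all genes, a choice made after seeing the data, total counts gave 51 genes, 45 of them members. A limit of 4-fold in place of 8-fold gave 252 genes and of 16-fold 5, a minimum of 2 CPM gave 80 and of 10 CPM 42, and setting the lowest 22 °C library against the highest 37 °C library left 2. Leaving out 1 library gave 46 genes (without replicate 1 at 22 °C of Chiifu, 42 shared, or of gi, 39 shared) to 60 (without replicate 3 of gi at 22 °C, 48 shared), and leaving out replicate 1 of both 22 °C groups, also added after seeing the data, gave 42, with 33 shared. Members called higher in gi at 37 °C numbered 1 to 7 when 1 library was left out and 7 with DESeq2. At 22 °C DESeq2 called 1 member higher. For the heat by genotype difference the number was 0 to 1 when 1 library was left out and 0 with the replicate number as a block. The block left 3 members called higher at 37 °C, without BraA07g027910.3.5C (adjusted p = 0.0758 in edgeR). Genes chosen in Chiifu and called lower in gi numbered 77 to 128, and those chosen in gi and called lower in Chiifu 73 to 93, when 1 library was left out. Fitting the tested genotype alone gave 135 and 71, DESeq2 125 and 98, and total counts 139 and 110. Total counts also called 38.4% of all genes lower in gi and 54.9% in Chiifu. No share over all genes is given for DESeq2 or for the fits of 1 genotype. With total counts the median difference of the members at 22 °C turned from 0.03 to -0.09, while that of all genes moved from -0.02 to -0.17. For single named genes 313 values kept their direction and their side of the threshold, 32 lost the call, 14 gained it and 0 reversed. Most of these values were heat changes of genes chosen for such changes, so their stability is a description. For the genotype difference at 37 °C, BraA07g027910.3.5C was called in 7 of 19 settings, the main fit included. BraA01g033150.3.5C was called in 14, BraA03g039120.3.5C in 15 and BraA03g051650.3.5C in 19. The heat by genotype difference of BraA03g051650.3.5C was called in 11 of 18. Depth limits the values at 37 °C, where 7 members in Chiifu had a library at 3 counts or fewer.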
